A study of Homo sapiens with 36 samples.

Results

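The genes described here were 10 DNA repair genes of homologous recombination and the Fanconi anaemia pathway, namely BRCA1, BRCA2, PALB2, RAD51C, RAD50, FANCA, FANCD2, FANCI, WRN and BLM. The rule listed the genes by name and used no measured value, and the list was drawn up with earlier results of these data known. A cluster was assigned to a gene when its midpoint fell on the gene's strand and inside its GENCODE 44 body on GRCh38. The 10 genes held 781 of the 278185 clusters in the 18 lists, and 9830 protein-coding genes held at least 1 cluster.

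The lists came from PAR-CLIP, in which cells are fed 4-thiouridine, proteins are crosslinked to RNA by UV light, and the crosslinked nucleotides read as T-to-C changes. The cells were HEK293 Flp-In T-REx, an embryonic kidney line with a defined site for transgene insertion, and the question was which RNAs SCAF4 and SCAF8 contact. Lines carrying doxycycline-inducible FLAG-SCAF4 or FLAG-SCAF8 received doxycycline overnight, at 100 ng/mL per the labels, while the parental line, without a tagged protein, served as control. The labels name no doxycycline for the parental line, whereas the study's methods name it for all 3 lines, at another dose. All 3 lines received 4-thiouridine at 100 µM overnight and at 500 µM for 2 h, and 365 nm light at 2000 J/m2. RNase I-treated extract was immunoprecipitated with anti-FLAG antibody (IP) or kept as input. The authors merged soluble and chromatin libraries, so that 36 libraries gave 18 lists, with 3 replicates in each of 6 groups (SCAF4 IP, SCAF8 IP, control IP and the input of each line). The tagged proteins were expressed from a transgene on top of the cells' own SCAF4 and SCAF8.

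Homologous recombination copies an intact sister strand to mend a double-strand break. RAD50 acts in the MRE11 complex that recognises and trims the break, and BRCA1, PALB2, BRCA2 and RAD51C prepare the exposed strand for the search for its partner. The Fanconi anaemia proteins unhook DNA crosslinks, with FANCA in the core complex that ubiquitinates the FANCD2-FANCI pair, and the RecQ helicases BLM and WRN unwind recombination intermediates. The gene bodies run from 38162 nt in PALB2 to 142351 nt in WRN, and the canonical isoforms from 9 exons in RAD51C to 44 in FANCD2. SCAF4 and SCAF8 are nuclear proteins that travel with RNA polymerase II and bear on where transcripts end.

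A list holds only positions of clusters and an unnamed score. The reads behind a cluster are unknown, so the total per list was the only measure of depth. The totals ran from 18287 to 54404 in the SCAF4 and SCAF8 IP lists, from 4793 to 11715 in their own inputs, from 4567 to 12493 in the parental input and from 1621 to 9638 in control IP. Replicate 1 was sequenced with longer reads than the other replicates. Counts are given as deposited and per 10000 clusters of the list, which sets aside the difference in total and says nothing of absolute RNA amounts. More protein bound to an RNA and more of that RNA in the cell cannot be told apart from a count of clusters alone, and the input lists carry the part of the signal that is present without IP.

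Sequences are shown for one contact site in each gene that had a site free of input and control clusters. A site here means a pooled region, in which clusters from 2 or more of the 6 lists of tagged-protein IP overlapped on one strand, and the site held by the most lists was taken among those whose window met no untranslated region of any annotated coding isoform, with ties going to the site nearest the gene start. A RAD50 site in exon 3 that more lists held was passed over for that reason, since the window is untranslated in 2 other isoforms. Each run is the central 100 nt on the transcribed strand of GRCh38, 5′ to 3′, with T standing for U and with CGG and CGA, triplets searched for below, in capitals. PALB2 had no such site, and none is printed for WRN.
BRCA1, exon 10, chr17:43091482-43091581, minus strand: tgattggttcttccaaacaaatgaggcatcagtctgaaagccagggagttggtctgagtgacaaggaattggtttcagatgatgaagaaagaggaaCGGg
BRCA2, intron 19 into exon 20, chr13:32370905-32371004, plus strand: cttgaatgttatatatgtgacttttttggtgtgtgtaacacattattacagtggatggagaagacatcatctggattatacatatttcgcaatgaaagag
RAD51C, intron 1, chr17:58693467-58693566, plus strand: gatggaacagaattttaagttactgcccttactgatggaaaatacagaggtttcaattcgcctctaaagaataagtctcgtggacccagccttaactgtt
RAD50, exon 8, chr5:132588704-132588803, plus strand: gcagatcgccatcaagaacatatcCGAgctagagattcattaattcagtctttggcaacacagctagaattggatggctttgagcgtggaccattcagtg
FANCA, intron 2 into exon 3, chr16:89814545-89814644, minus strand: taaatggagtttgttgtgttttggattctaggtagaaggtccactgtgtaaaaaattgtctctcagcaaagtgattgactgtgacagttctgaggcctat
FANCD2, intron 36 into exon 37, chr3:10090282-10090381, plus strand: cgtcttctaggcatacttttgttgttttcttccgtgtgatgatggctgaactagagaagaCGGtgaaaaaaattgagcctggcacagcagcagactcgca
FANCI, intron 36 into exon 37, chr15:89315276-89315375, plus strand: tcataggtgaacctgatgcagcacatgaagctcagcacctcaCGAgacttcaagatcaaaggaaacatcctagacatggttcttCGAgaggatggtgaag
BLM, intron 14 into exon 15, chr15:90790645-90790744, plus strand: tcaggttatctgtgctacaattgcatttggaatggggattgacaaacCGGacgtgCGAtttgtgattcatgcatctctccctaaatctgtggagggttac

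These sites were present in 6 of the 6 IP lists for FANCI, in 5 for BRCA1, FANCA, FANCD2 and BLM, in 4 for RAD51C and RAD50, and in 2 for BRCA2. A CGG or CGA lay in 5 of the 8 runs, those of BRCA1, RAD50, FANCD2, FANCI and BLM. The other 3 runs held neither triplet. Of the runs that cross into an exon, 96 nt were exonic in BLM, 94 in FANCI, 90 in FANCD2, 69 in FANCA and 49 in BRCA2. Numbering of exons and introns follows the Ensembl canonical isoform throughout.

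The 10 genes together took a larger share of the IP lists than of the inputs of the same lines. They held 61, 154 and 102 clusters in the SCAF4 IP lists and 91, 63 and 122 in the SCAF8 IP lists, against 24, 6 and 7 in SCAF4 input and 22, 19 and 17 in SCAF8 input. Per 10000 clusters the IP lists ran from 28.3 to 36.1 and their own inputs from 11.7 to 24.1, so the lists of the 2 kinds did not overlap. The parental input reached 27.2, just below the lowest IP list. Pooled, 593 of 192335 IP clusters stood against 95 of 50137 own-input clusters, a rate ratio of 1.63 (95% exact counting interval 1.31 to 2.04). The interval covers counting error only. FANCA alone gave 232 of the 593 IP clusters and 45 of the 95 own-input clusters, and 0 single members had all IP lists above all own inputs. Other sets of genes were not summed in this way, so the separation of the summed lists has no background.

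The same share was not higher than in control IP. Control IP held 34, 0 and 6 clusters in the 10 genes, which is 35.3, 0 and 37.0 per 10000, and the pooled ratio of SCAF4 and SCAF8 IP over control IP was 1.05 (0.759 to 1.48). The control list with 0 held 2314 clusters in all. Most of the control signal sat in FANCA, with 18 clusters, and FANCD2, with 11.

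**Figure D1:**
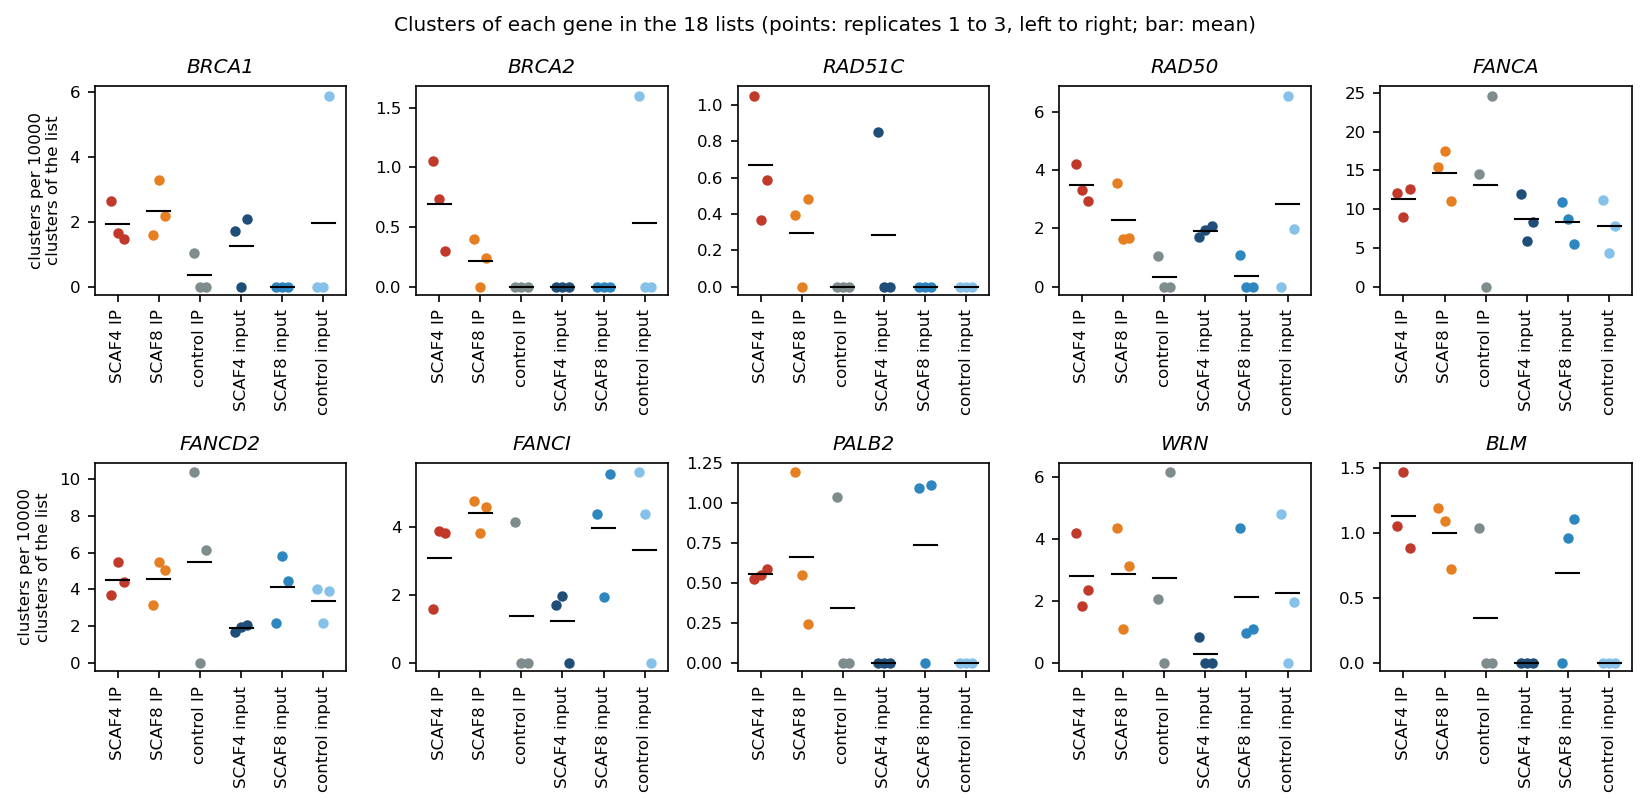
Clusters per 10000 clusters of the list (vertical axis) in 1 panel per gene, each with its own scale, with 1 point for each of the 18 lists, a bar for the mean of a group and the 6 groups along the horizontal axis. BRCA1 and RAD50 were the genes whose 6 SCAF4 and SCAF8 IP lists all stood above the 3 control IP lists, and the scale of FANCA was the largest, with means of 11.3 in SCAF4 IP and 14.7 in SCAF8 IP.

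Among the 9709 protein-coding genes with an IP cluster, all members but BRCA2 and RAD51C held more clusters than over 50% of the genes. FANCA ranked 12 by clusters in the 6 IP lists, with 232, and FANCD2 ranked 284 with 91. FANCI held 75 clusters, RAD50 55, WRN 52, BRCA1 38, BLM 21, PALB2 11, and BRCA2 and RAD51C 9 each, more than 48.8% of the genes. Per 10 kb of gene body, FANCA held 25.7 clusters, FANCD2 12.0, FANCI 10.2 and RAD50 6.09, while BRCA2 held 1.06. The median of the members was 3.33 per 10 kb and that of all genes with an IP cluster 2.66 per 10 kb. The members were also longer, with a median body of 87739 nt against 36824 nt.

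IP and own inputs were compared gene by gene with limma on log2 clusters per 10000 over all 5314 protein-coding genes with at least 10 clusters, a filter that all 10 members passed. Of the 5314 genes, 24.1% were higher in IP at an adjusted p under 0.05, and of the members 3 of 10 were, BRCA1, BRCA2 and BLM. The log2 difference was positive for all 10 members, with a median of 1.00 against a median of 0.70 over all genes. The median over all genes depended on the count added before the logarithm, at 1.00 with 0.25 added and 0.45 with 1 added. It was 0.39 in the fit with at least 30 clusters, so its size is not a fixed shift of the typical gene towards IP. The filter also favours genes high in IP. Members are therefore compared with this median within a single fit only. None of the members was called lower. All 3 called members passed the filter mainly through the IP lists. BRCA2 had 11 clusters in all, 9 of them in these IP lists, and BLM 24 and 21. BRCA1 had 38 in these lists, 6 in the inputs and 1 in control IP. With a filter of at least 30 clusters 0 members were called, and 274 of 2411 genes were higher. BRCA2, RAD51C, PALB2 and BLM did not reach 30 clusters, so that fit could not call them.

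BRCA1, the ubiquitin ligase scaffold that steers breaks into recombination, held 5, 9 and 5 clusters in SCAF4 IP and 4, 6 and 9 in SCAF8 IP. It held 2, 0 and 1 in SCAF4 input, 0 in each SCAF8 input, 0, 0 and 3 in the parental input and 1, 0 and 0 in control IP. All 6 IP lists thus had several clusters, and all 3 SCAF8 inputs had none. The log2 difference against own inputs was 1.95 ± 0.70 (SE), with a limma adjusted p of 0.039, and the pooled rate ratio was 3.30 (1.05 to 16.7). The per-10000 rates were 1.47 to 3.28 in IP and 0 to 2.09 in own inputs, so single lists overlapped. These values include 9 IP clusters and 1 input cluster outside the canonical isoform. The regions there also lie in a lncRNA on the same strand, described below, and no values without these clusters were computed.

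BRCA2, a mediator of strand exchange, held few clusters in any list. The SCAF4 IP lists had 2, 4 and 1 and the SCAF8 IP lists 1, 0 and 1, while its own inputs and control IP had 0 in every list and 1 parental input list had 2. The limma difference against own inputs was 1.12 ± 0.37 with an adjusted p of 0.028. That value depends on the count of 0.5 added before the logarithm, since the IP rate of 0.468 per 10000 lay under the 0.598 per 10000 that 0 clusters in the pooled own inputs still allow (3 counts), and no fold is given.

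PALB2, the bridge between BRCA1 and BRCA2, held 1, 3 and 2 clusters in SCAF4 IP and 3, 1 and 1 in SCAF8 IP. SCAF8 input had 1, 0 and 1, control IP had 1, 0 and 0, and the other inputs had none. The difference of 0.75 ± 0.47 was close to the median over all genes in the same fit, with an adjusted p of 0.242.

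RAD51C, which acts beside BRCA2 in strand exchange, held 2, 2 and 2 clusters in SCAF4 IP, 1, 0 and 2 in SCAF8 IP, 1 in the first SCAF4 input and 0 in the other 11 lists. The difference of 0.88 ± 0.34 had an adjusted p of 0.053. All 9 of its IP clusters lay in the first 10% of the gene body.

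RAD50, the coiled-coil ATPase of the MRE11 complex, held 8, 18 and 10 clusters in SCAF4 IP and 9, 3 and 7 in SCAF8 IP. Its inputs held 2, 1 and 1 for SCAF4, 1, 0 and 0 for SCAF8 and 0, 3 and 1 for the parental cells, and control IP held 1, 0 and 0. The pooled rate ratio over own inputs was 2.87 (1.16 to 9.18). The log2 difference of 1.49 ± 0.67 had an adjusted p of 0.098. All RAD50 clusters also lie in the body of a longer readthrough gene, ENSG00000283782, and the 2 cannot be told apart.

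FANCA, of the core ubiquitin ligase complex, had the most clusters of any member in the IP lists, but also in the inputs and in control IP. It held 23, 49 and 43 clusters in SCAF4 IP and 39, 32 and 46 in SCAF8 IP, with 14, 3 and 4 in SCAF4 input, 10, 9 and 5 in SCAF8 input, 14, 2 and 4 in parental input and 14, 0 and 4 in control IP. Per 10000 clusters IP ran from 9.01 to 17.5 and own inputs from 5.55 to 12.0, which overlap. The log2 difference was 0.60 ± 0.63 with an adjusted p of 0.496, and the pooled ratio was 1.34 (0.973 to 1.89). Each of the 6 IP lists nevertheless lay above the input of its own extract, and with a block for the extract the same difference had an SE of 0.20 and a limma adjusted p of 0.024.

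FANCD2 and FANCI, the pair that the core complex ubiquitinates, followed FANCA. FANCD2 held 7, 30 and 15 clusters in SCAF4 IP, 8, 10 and 21 in SCAF8 IP, 2, 1 and 1 in SCAF4 input, 2, 6 and 4 in SCAF8 input, 5, 1 and 2 in parental input and 10, 0 and 1 in control IP. FANCI held 3, 21 and 13 in SCAF4 IP, 12, 7 and 19 in SCAF8 IP, 2, 1 and 0 in SCAF4 input, 4, 2 and 5 in SCAF8 input, 7, 2 and 0 in parental input and 4, 0 and 0 in control IP. The first parental input list of FANCI, at 5.60 per 10000, stood above its highest IP list, at 4.76. Their pooled ratios over own inputs were 1.48 (0.866 to 2.70) and 1.40 (0.783 to 2.68), intervals that include 1.

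The RecQ helicases differed in level. WRN held 8, 10 and 8 clusters in SCAF4 IP, 11, 2 and 13 in SCAF8 IP, 1, 0 and 0 in SCAF4 input, 4, 1 and 1 in SCAF8 input, 6, 0 and 1 in parental input and 2, 0 and 1 in control IP. The third control IP list of WRN, at 6.17 per 10000 on 1 cluster, and the first parental input list, at 4.80, stood above its highest IP list, at 4.37. BLM held 2, 8 and 3 in SCAF4 IP, 3, 2 and 3 in SCAF8 IP, 0 in each SCAF4 input, 0, 1 and 1 in SCAF8 input, 0 in each parental input and 1, 0 and 0 in control IP. BLM had a log2 difference of 1.39 ± 0.49 and an adjusted p of 0.037, and WRN one of 1.52 ± 0.74 and 0.125.

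**Figure D2:**
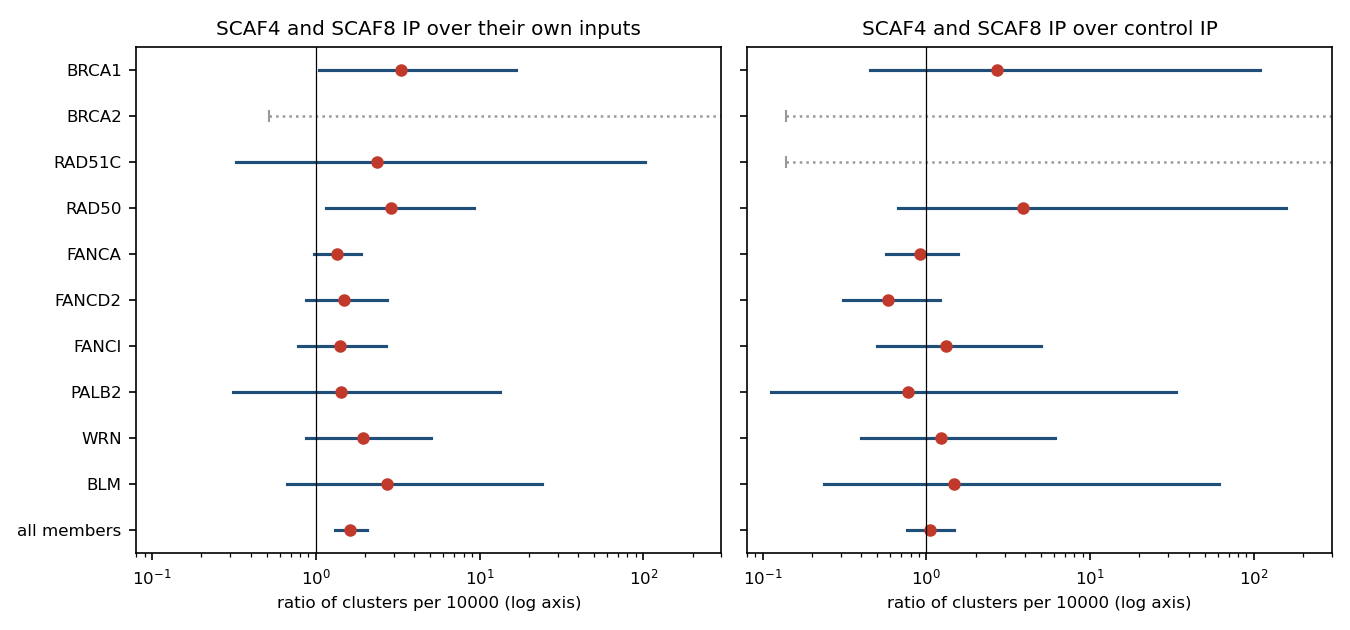
Ratio of pooled clusters per 10000 in SCAF4 and SCAF8 IP over own inputs and over control IP (logarithmic axis), by gene, with 95% exact counting intervals and dotted lines for genes with 0 clusters in the other group, where only the lower bound exists. The intervals over own inputs exclude 1 for BRCA1 and RAD50, and every interval over control IP includes 1. The share of all genes whose interval excludes 1 was not computed, and limma did not call RAD50 over own inputs (adjusted p 0.098).

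The limma calls changed with single replicates: 0 members were called without replicate 2 or without replicate 3, and 6 with a replicate block that ties each IP to its extract's input (BRCA1, BRCA2, RAD50, FANCA, WRN and BLM). Of all 5314 genes, 506 were called higher without replicate 2, 193 without replicate 3 and 1669 with that block, beside 1283 in the main fit. The calls of the members were not shared by tests on the counts themselves. A quasi-Poisson model with the list total as offset called 0 of 5314 genes (0%) and 0 members, with 1394 genes and 2 members (BRCA1 and RAD50) at an unadjusted p under 0.05. An exact permutation test of the mean rates over the 12 IP and own-input lists (924 splits, 2-sided) called 484 genes (9.11%) higher, 306 lower and 0 members, of which 5 had an unadjusted p under 0.05, and the smallest adjusted p of a member was 0.060, for BRCA2. Only 6.32% of genes had all 6 IP lists above all 6 own inputs, and 0 members did.

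With each protein set against its own input, limma called 2 of 10 members higher for SCAF4 and 15.7% of all genes. These were BLM, with 2.15 ± 0.70 and an adjusted p of 0.035, and BRCA2, with 1.58 ± 0.53 and 0.040, where the SCAF4 inputs had no cluster in either gene. For SCAF8, limma called 0 members and 3.63% of genes, with 2 members and 968 genes at an unadjusted p under 0.05. The 2 were BRCA1, at 3.00 ± 0.99 and an adjusted p of 0.085, and RAD50, at 2.23 ± 0.95 and 0.200. Without replicate 2 or replicate 3, 0 of 5314 genes were called for SCAF4, and so 0 members. Without replicate 1 RAD50 was called for SCAF8, beside 701 of all genes higher and 70 lower. A call for one protein and none for the other was not itself a difference. The difference between the proteins, tested in limma as an interaction, gave 0 of 5314 genes (0%) with 220 at an unadjusted p under 0.05, none of them a member. SCAF4 IP and SCAF8 IP compared directly differed for 0.301% of genes and for 0 members, also at an unadjusted p.

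Against control IP, limma called 3 of 10 members higher, BRCA1, RAD51C and RAD50, near the 30.4% of all genes. RAD51C, with 9 clusters in the SCAF4 and SCAF8 IP lists and 1 in an input, passed the filter through the IP lists. RAD50 differed by 2.55 ± 0.82 with an adjusted p of 0.022, BRCA1 by 2.19 ± 0.85 with 0.049 and RAD51C by 1.19 ± 0.41 with 0.030. The median over all genes was 1.19, so the RAD51C difference was that of the typical gene, and RAD51C had no cluster in any control list, where 3 counts would make 2.21 per 10000 against 0.468 in IP. FANCI, at 2.32 ± 0.92, had an adjusted p of 0.051. With replicate 2 or replicate 3 of all groups left out 0 of 5314 genes were called, and so 0 members. With a replicate block 5 members were called (BRCA1, BRCA2, RAD51C, RAD50 and FANCI), beside 1909 of all genes higher. Without the second control IP replicate, the list with no member cluster, 605 of all genes were called higher and 0 members. FANCA and FANCD2 then turned negative, at −0.57 and −0.80. The quasi-Poisson model called 0 genes (0%), with 181 genes and 0 members at an unadjusted p under 0.05.

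BRCA1 and RAD50 were the 2 members of 10 whose 6 IP lists all lay above the 3 control IP lists, which 19.6% of all genes did. In RAD50 the IP lists ran from 1.64 to 4.21 per 10000 and the highest control list had 1.04, on 1 cluster. Control IP against parental input, the same antibody step without a tagged protein, differed in limma for 0.659% of genes and for 0 members, also at an unadjusted p.

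Clusters recurred at the same places. Before any removal, the 10 genes held 121 pooled regions, of 41704 in all genes, and 106 (87.6%) had clusters of both proteins, against 77.4% of all regions. In all 6 IP lists were 23 of them (19.0%), against 14.7%. No input and no control IP cluster overlapped 66 (54.5%), against 53.9%. These are descriptions over regions, with no test.

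Regions were then removed by steps modelled on those of the study, which removed background by input overlap and by input clusters per 10 kb of gene. Here a region was removed if it overlapped more than 1 input list or any control IP cluster, or if its gene reached 1 merged input region per 10 kb. After this, 32 regions (26.4%) were kept in the members, against 38.3% of all regions. RAD50 kept 10 of 13, WRN 8 of 12, BRCA1 7 of 7, BLM 3 of 4, and BRCA2 and RAD51C 2 of 2 each. PALB2 lost its only region to input overlap. FANCA lost all 42, FANCD2 all 20 and FANCI all 18, since their input regions numbered 2.66, 1.19 and 1.77 per 10 kb, while the other members ran from 0.202 to 0.476. Without this density limit 79 regions stayed, with 24 in FANCA, 10 in FANCD2 and 13 in FANCI. By this count FANCD2 lay just above the limit. Input clusters counted singly gave 7.20 per 10 kb in FANCA, 3.18 in FANCD2 and 3.14 in FANCI, and 0.996 in RAD50 and 0.983 in WRN, just under it. FANCD2 kept 14 regions without replicate 1, 5 without replicate 2 and 7 with the high-scoring clusters of each list. PALB2 kept 1 without replicate 1 and 1 with high-scoring clusters. In these settings input overlap and density were recomputed on the clusters left, with the limits unchanged, so fewer input clusters could remove a region.

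**Figure D3:**
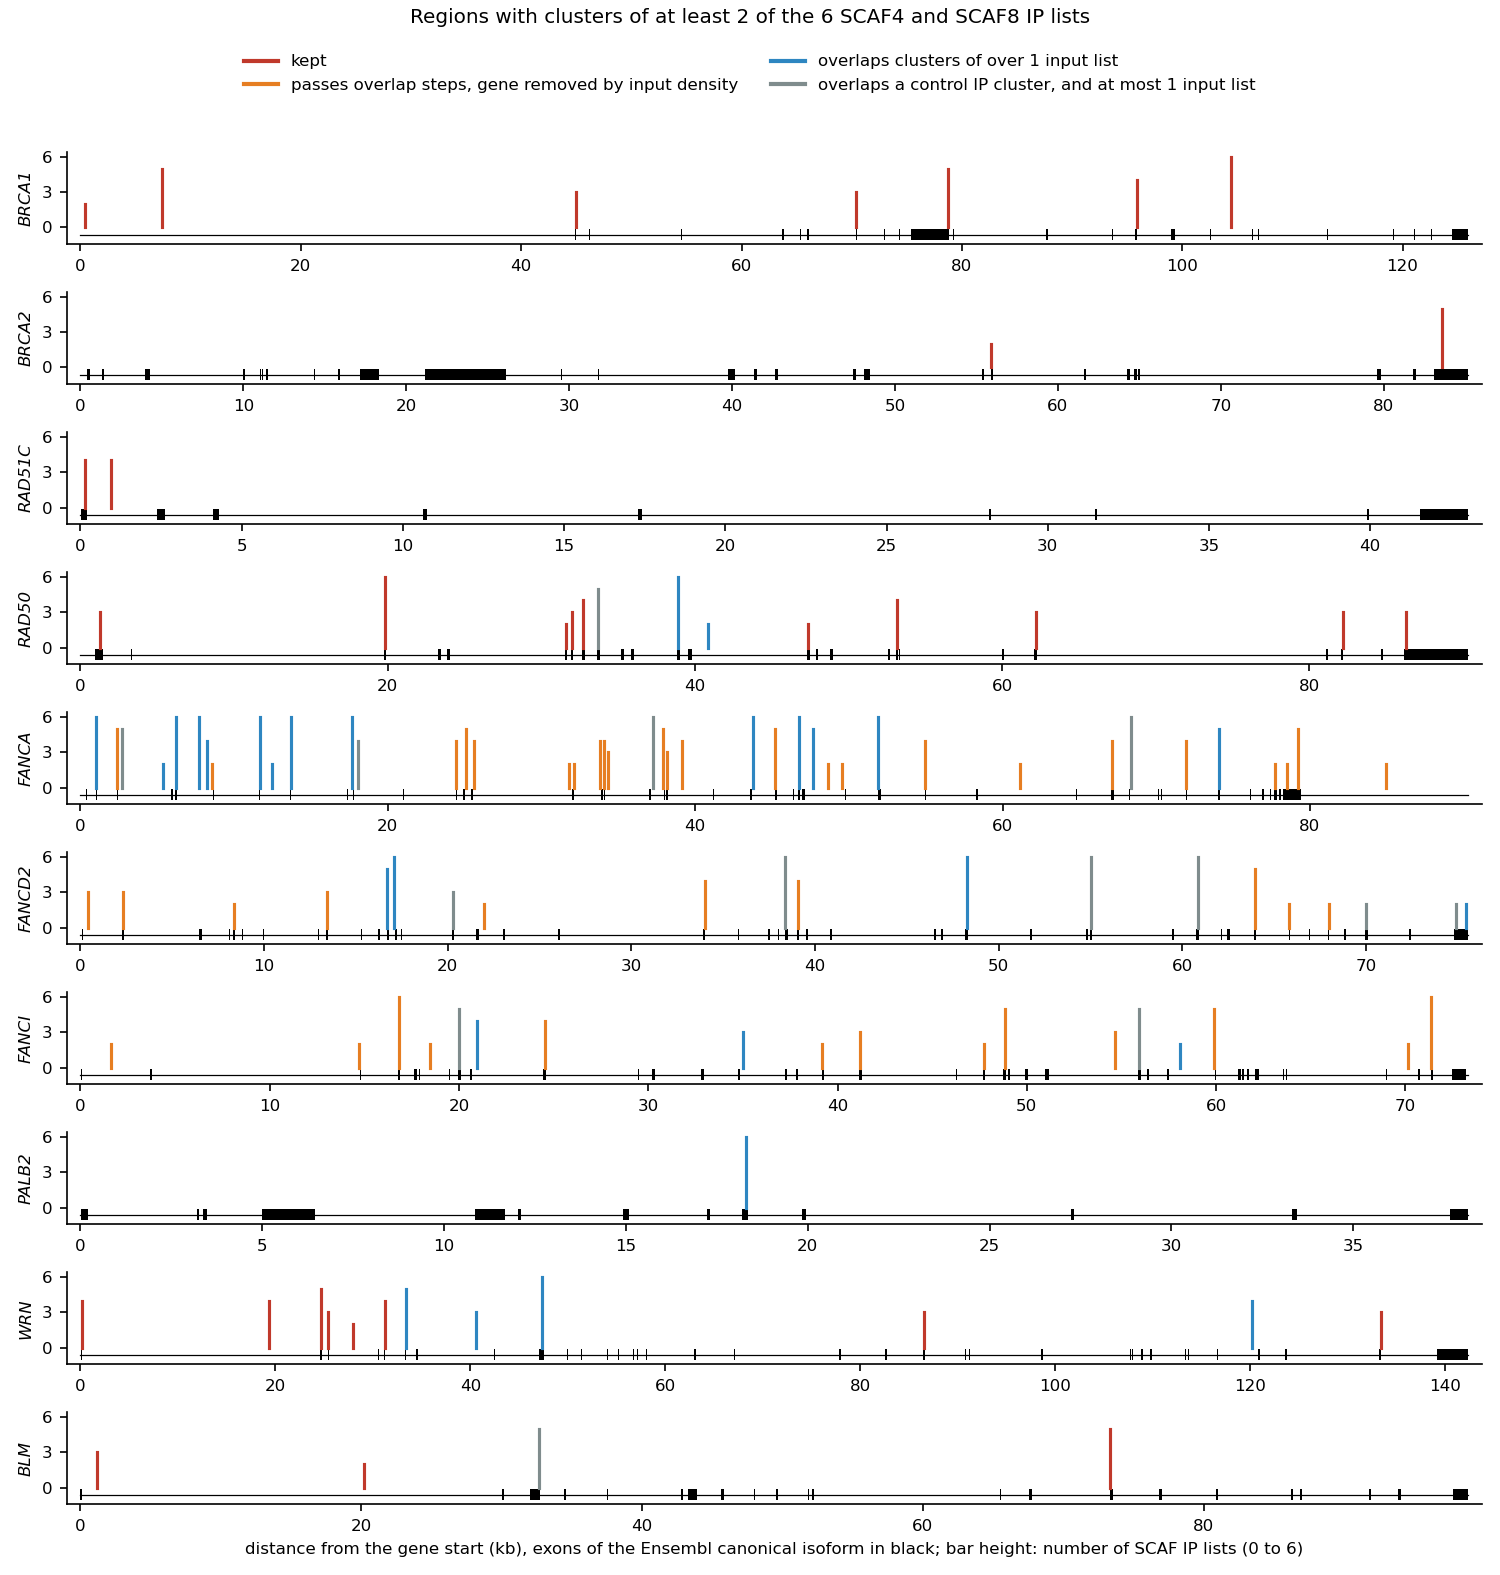
Pooled regions along each gene body, drawn by distance from the gene start in kb, with exons of the canonical isoform in black. The height of a bar is the number of the 6 IP lists, and its colour gives whether the region was kept, overlapped inputs or control IP, or lay in a gene removed by input density. The 2 RAD51C regions sat at the start of the gene, while those of FANCA, FANCD2, FANCI and RAD50 were spread along the body.

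In BRCA1 the region in all 6 IP lists was chr17:43065709-43065952, in intron 16, and 1 parental input list also had a cluster there. Exon 10, printed above, and exon 14 (chr17:43074310-43074472) held regions in 5 and 4 lists without any input cluster. Another region in 5 lists, chr17:43162741-43162958, lay at −37485 nt from the canonical start and inside an overlapping lncRNA, ENSG00000267002, on the same strand, so its transcript cannot be told apart. Of the 38 IP clusters of BRCA1, 9 lay outside the canonical isoform.

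BRCA2 had a region in its last exon, exon 27 (chr13:32398583-32398724), in 5 IP lists, and 1 parental input list overlapped it. Its clusters leaned to the 3′ side, with 5 of 9 in the last 10% of the gene. PALB2 had 1 region, in exon 9 (chr16:23622959-23623097), in all 6 IP lists, in 2 SCAF8 input lists and in 1 control IP list.

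RAD51C had a region in exon 1 (chr17:58692612-58692835) and one in the first intron (chr17:58693355-58693677), each in 3 SCAF4 IP lists and 1 SCAF8 IP list. The exon 1 region overlapped 1 SCAF4 input cluster, and the intronic one, whose sequence is printed above, none. The annotated end of a short isoform, RAD51C-208, lay 1203 nt downstream of the intronic region.

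RAD50 regions followed the exons. Of 55 IP clusters, 51 had an exonic midpoint and 37 spanned a splice junction. Exon 3 (chr5:132575774-132575961) had clusters in all 6 IP lists and in no input or control list, whereas exon 12 (chr5:132594840-132595050) had them in all 6 IP lists and also in 5 input lists.

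FANCA clusters were mostly intronic, 142 of 232 (61.2%) in IP and 47 of 65 (72.3%) in the inputs. Of the IP clusters, 122 spanned a splice junction, and the intronic midpoints lay a median of 145.5 nt from the nearest junction. A region at chr16:89805083-89805472 was present in all 6 IP lists and in 7 of 9 input lists. Of 24 places with input clusters in FANCA, 23 also had an IP cluster.

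FANCD2 was mostly exonic in both kinds of list, with 66 of 91 IP clusters and 20 of 24 input clusters. Its exon 29 region (chr3:10074529-10074711) was in all 6 IP lists and in all 9 inputs. FANCI differed between the 2 kinds. Of its IP clusters 32 of 75 were intronic, and of its input clusters 22 of 23 were. The lists ran from 0 of 3 to 10 of 19 intronic in IP, and all but 1 input cluster, in the third SCAF8 input, was intronic. Of 13 places with FANCI input clusters, 7 had no SCAF4 or SCAF8 IP cluster, and chr15:89281997-89282415 in intron 16 had clusters in 3 input lists and in no IP list. In exon 37 (chr15:89315243-89315408) FANCI had clusters in all 6 IP lists and in no input.

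WRN kept 8 regions on chromosome 8, among them exon 2 (chr8:31058381-31058577) in 5 IP lists and the 5′ end of the gene in 4. Of its input clusters 7 of 14 were intronic, as were 19 of 52 in IP. BLM had its best-supported region in exon 15, in 5 IP lists with 7 clusters, and 2 more in its first intron.

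Over all members the shares by position were led by coding exons. By the canonical isoform, 52.3% of the 593 IP clusters had their midpoint in a coding exon, 42.0% in an intron, 2.36% in a 3′ UTR and 1.35% in a 5′ UTR. Over all protein-coding genes the same shares were 48.7%, 31.8%, 13.1% and 2.91%. The members therefore had more intronic and fewer 3′ UTR midpoints than the average, as a description. The lower 3′ UTR share was also present in the inputs, at 3.38% in the members and 24.1% over all protein-coding genes. The intronic share ran from 34.4% to 47.3% over the 6 IP lists, each above the share of all protein-coding genes in its own list, 24.0% to 34.9%. By the isoform with the most exonic sequence it was 36.6% against 26.4%.

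This excess rested on FANCA. Without it, 107 of 361 IP clusters (29.6%) were intronic. In the inputs the share was 58.8% over all members and 48.2% (40 of 83) without FANCA, against 36.1% over all protein-coding genes. In control IP it was 35.0% (14 of 40). Splice junctions were spanned by 53.3% of IP clusters, 62.5% of control IP clusters and 31.1% of input clusters in the members. In the last 10% of the gene lay 6.24% of member IP clusters and 16.5% of those of all protein-coding genes. The inputs had the same order, with 5.41% and 22.2%. FANCA, whose canonical isoform ends 10866 nt before the gene end, had 3 of its 232 IP clusters there.

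**Figure D4:**
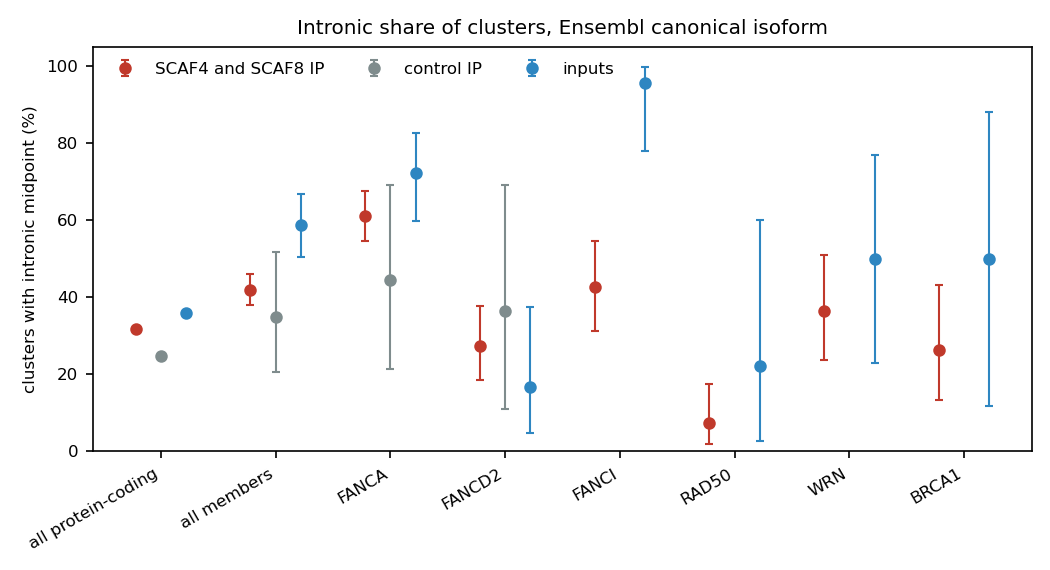
Share of clusters with an intronic midpoint (percent) by gene for SCAF4 and SCAF8 IP, control IP and inputs, where at least 5 clusters were present, with 95% exact intervals, beside all members and all protein-coding genes. FANCI inputs stood at 95.7% and FANCI IP at 42.7%, while RAD50 IP stood at 7.27%.

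Annotated ends of transcripts inside the gene body lay near some regions of the members. Of the 121, 11 ended within 200 nt upstream of the end of a short isoform, meaning one that ends over 1000 nt before the gene end, and 14 contained such an end. This rule also takes in full-length isoforms. FANCA-202, the canonical isoform with 43 exons, ends 10866 nt before the gene end, and BRCA2-203, with 28 exons, 1350 nt before it. The 11 and 14 are therefore not counts of early ends alone, and the shares over all regions were not computed. Examples were FANCA in intron 15 (chr16:89783088-89783259, 32 nt before the end of FANCA-236) and RAD50 in exon 18 (chr5:132609049-132609240, 99 nt before RAD50-203).

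Short sequence words in the regions were searched in the central 100 nt on the transcribed strand. CGG or CGA was present in 63.6% of the 121 member regions and in 67.2% of all 41704 regions, and in 78.1% of the 32 kept regions against 71.2% of the 15967 kept in all genes. At least 1 of CCAGC, its variant CCAGG, the word GCAGC and its variant GCAGG was present in 42.1% against 43.9%, and in 28.1% against 45.4% after removal. CUCC or CACC was present in 43.8% against 49.3% and the polyadenylation hexamer AAUAAA in 4.96% against 3.08%. The median GC content of the windows was 45% in the members and 49% over all regions. With 32 kept regions these shares rest on few windows and were not tested.

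The other genes of these pathways, from textbook lists, were measured in the same limma fit against own inputs. Of 62 other homologous recombination and Fanconi anaemia genes 38 passed the filter and 18 of these were called higher and 0 lower, with a median difference of 1.26, beside 24.1% of genes higher and a median of 0.70 over all genes. RAD54L, which aids strand invasion, held 68 IP clusters, 1 in control IP, 0 in its own inputs and 3 over all inputs. Its pooled IP rate was 5.91 times the rate of 3 counts in the pooled own inputs. The limma adjusted p was 0.00025, and 13 regions were kept. RTEL1, a helicase that dismantles recombination loops, had 14 regions, 64 IP clusters and 0 in own inputs, a quotient of 5.56. These quotients ignore the counting error of the IP and are not lower bounds. The fitted values of genes with 0 own-input clusters depend on the added 0.5. XRCC3 was also called, at 2.47. RBBP8, which starts end resection, was called with a quotient of 2.95, on 0 own-input clusters and 3 over all inputs. MRE11, the nuclease partner of RAD50, was called with a quotient of 1.48. BRIP1, the helicase partner of BRCA1, was not, at 0.48 with 7 regions and 19 own-input clusters. EME1, FANCC, PSMC3IP and RECQL4 were called on 10 to 22 IP clusters and 0 own-input clusters each. These genes had 0 clusters in control IP and in all inputs, and so passed the filter through the IP lists alone. The filter thus favours genes high in IP, and the count of calls is not independent of it.

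Of 45 genes of other repair pathways 26 passed and 8 were called higher and 0 lower, with a median of 0.77. TP53BP1, which opposes end resection, differed by 1.79 ± 0.47, with 36 IP clusters, 2 in own inputs and 11 regions. PARP2, XRCC1, XPC, ERCC2, ERCC5 and PAXX were also called, on 9 to 18 IP clusters and 0 own-input clusters each. Of these, PARP2, XPC and ERCC2 had 0 clusters in control IP and in all inputs, and passed the filter through the IP lists alone. DDB1 and REV3L, with 9 and 8 regions, were not called, at 0.79 and 0.09. The exact permutation test called 8 of the 38, all higher, and 3 of the 26, with ERCC5 and PAXX higher and XRCC6 lower. XRCC6, a subunit of Ku that was singled out after its values were seen, had 3.07 per 10000 in IP and 6.38 in own inputs, with an adjusted p of 0.034 in the exact test. The quasi-Poisson model called 0 of both, with 14 and 5 at an unadjusted p under 0.05.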

How the data were processed

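PAR-CLIP lists of 18 library pairs (soluble and chromatin, 36 libraries) were analysed. Per the labels and the study's methods, the authors trimmed reads (Trim Galore, cutadapt; bcl2fastq 1.8 before), aligned them to GRCh38 with Bowtie2 2.2.9, removed duplicates with Picard, merged the fractions of a replicate and called clusters with PARalyzer from T-to-C changes. The deposited files give positions and an unnamed score, which served here to rank a list's clusters and for nothing else. Merging hides which fraction a cluster came from, and a cluster counts once whatever its reads.

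Clusters were assigned by midpoint and strand to GENCODE 44 genes, and log2 of clusters per 10000 (0.5 added, scaled to the total) was fitted in limma 3.58.1 (R 4.3.3; trend, robust) over 5314 protein-coding genes with at least 10 clusters, with 1 mean per group and Benjamini-Hochberg adjustment. Counts were also tested with a quasi-Poisson model and an exact permutation test; intervals are exact Poisson-conditional at 95% and cover counting error only. Pooled regions were modelled on the study's steps, with input lists and merged input regions counted here and removal by control IP added. Tests ran with scipy 1.17.1 and numpy 2.4.6 in Python 3.11.15, tables with pandas 2.3.3, sequences with pysam 0.24.0 and figures with matplotlib 3.10.9. The tests were tried on simulated data with known answers.

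The genes named were the 10 members and, of each other list, up to 8 genes with the lowest adjusted p under 0.05 and up to 4 with the most pooled regions. RTEL1 was named for its regions, and a gene that met the rule is not reported here. Members and lists were chosen with earlier results of these data known. An IP and the input of the same number came from one extract, which pairs them; correlations of their deviations from group means were 0.164, 0.029 and 0.119 for SCAF4, 0.309, 0.147 and 0.072 for SCAF8 and 0.226, 0.095 and 0.093 for the control. The lists of one group are called biological replicates by the study, and no 2 lists shared more than 0.740% of identical clusters. The alternatives were no scaling, other prior counts, other filters, covered nucleotides, high-scoring clusters, a replicate block, each replicate left out and the count tests. Leaving out the second control IP replicate and the quasi-Poisson model against control IP were chosen after seeing the data.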

Additional observations from a re-analysis of the deposited data

Results flagged for a closer look

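Clusters on the strand opposite to a member gene, outside the comparisons above, numbered 41 in the SCAF4 and SCAF8 IP lists (2.13 per 10000 clusters), against 1 in control IP (0.737 per 10000) and 11 in the inputs (1.52 per 10000). Of the 41, 25 lay in ZNF276 inside the FANCA body, 9 in NBR2 at BRCA1, and in FANCI 2 lay in POLG and 5 in no annotated gene. In the 2000 nt upstream of the gene starts, on the opposite strand, 10 clusters were present in the IP lists (0.520 per 10000), against 0 in control IP, which allows up to 2.21 per 10000, and 0 in the inputs, which allows up to 0.415 per 10000. Of these 10, 4 lay 961 to 1155 nt upstream of FANCA in no annotated gene, 3 in DCTN5 at PALB2 and 3 in PURG at WRN.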

How the results depend on the processing

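Of 3 members called higher in IP than in own inputs, the count rose to 10 without scaling and to 6 with the replicate block by extract (BRCA1, BRCA2, RAD50, FANCA, WRN, BLM), and fell to 0 with at least 30 clusters, high-scoring clusters only, the quasi-Poisson model or the exact permutation test, and to between 0 and 4 with a replicate left out (0 without replicate 2 or 3). Of 5314 genes, 4025 were called higher without scaling, 1669 with the block by extract and 1640 without replicate 1. No direction of a member turned in this comparison, over 144 refits. In this and the other comparisons, the fit with at least 30 clusters left out BRCA2, RAD51C, PALB2 and BLM, and so could not call them. For SCAF4 alone the 2 calls became 10 without scaling, 4 with the block by extract, 1 with a prior count of 1, with at least 1 cluster or on covered nucleotides, 0 with at least 30 clusters or high scores, and 0 to 3 with a replicate left out. The 2 genes called for SCAF4, BLM and BRCA2, were both absent from the fit with at least 30 clusters. Of all genes, 3535 were called higher for SCAF4 without scaling and 1140 with the block by extract. For SCAF8 alone 0 calls became 3 without scaling and 1 (RAD50) without replicate 1, beside 1435 and 701 of all genes higher. Against control IP the 3 calls became 10 without scaling, 5 with a prior count of 0.25 or the replicate block, 1 with at least 1 or at least 30 clusters, 0 with high scores, the quasi-Poisson model or without control IP replicate 2, and 0 to 5 with a replicate left out. Of all 5314 genes, 4620 were called higher without scaling, 1806 with a prior count of 0.25, 1909 with the replicate block and 2555 without replicate 1. Control IP against parental input and the interaction each gave 1 call without replicate 1, RAD50 and BLM. Over all genes that setting gave 28 higher and 319 lower in the first, and 200 higher and 20 lower in the second.

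Directions were followed for 2 comparisons, against own inputs and against control IP, and turned in the latter, in 10 of 134 refits. The other comparisons were not checked for this. FANCA reached −0.56 without replicate 2, −0.57 without control IP replicate 2 and −0.14 in the quasi-Poisson model, FANCD2 −0.94, −0.80 and −0.78 in the same order and −0.059 with high-scoring clusters, WRN −0.08 and −0.44 without replicate 2 and without control IP replicate 2, and PALB2 −0.37 in the quasi-Poisson model. With a replicate left out, FANCA ran from −0.56 to 2.60, FANCD2 from −0.94 to 1.92 and WRN from −0.08 to 1.68. The 32 kept regions were 79 without the density limit, 25 to 36 under the other settings and 29 to 46 with a replicate left out. Leaving out a replicate also took its inputs out of the removal steps. The intronic share of 36.6% was 42.0% by the canonical isoform, 32.4% outside every annotated exon and 40.9% with high-scoring clusters, and 36.3% to 37.0% with a replicate left out. Over all genes, 1415 calls against own inputs became 0 to 4025 (203 to 1907 with a replicate left out), 904 for SCAF4 became 125 to 3535 (0 to 1939), 194 for SCAF8 became 0 to 1435 (0 to 771), 1797 against control IP became 0 to 4620 (0 to 2845), 35 for control IP against input 0 to 93 (0 to 347), 16 for SCAF4 against SCAF8 IP 0 to 111 (0 to 150), and 0 for the interaction 0 to 220 with a replicate left out. The cause of these changes was not tested. Depth was unknown and totals of the inputs and control IP were small, so the ratios of members with few clusters, such as BRCA2, RAD51C and PALB2, have wide intervals.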
